A study of Mus musculus with 8 samples.

Results

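The miR-30 family is a group of miRNAs made from several hairpins, and its members were followed here in the brown fat of cold-exposed mice. The members were chosen by name: the 5 guide strands mmu-miR-30a, mmu-miR-30b, mmu-miR-30c, mmu-miR-30d and mmu-miR-30e and the 4 passenger strands mmu-miR-30a*, mmu-miR-30b*, mmu-miR-30e* and mmu-miR-30c-1*, which the array design lists under exactly these names; the species prefix is left out below. They make up 9 of the 566 mouse miRNAs on the array, and all 9 were among the 189 miRNAs bright enough to be measured. The tissue came from 6 male C57Bl6N mice aged 8 weeks. Mice 1, 2 and 3 were kept at 8 °C for 24 h, and mice 4, 5 and 6 stayed at room temperature, given as 21 °C. RNA labelled with the dye Cy3 was hybridised to 1-colour Agilent miRNA arrays, 1 sample per array. Mouse 1 and mouse 4 were each put on 2 arrays, which were averaged, so that n = 3 mice per group on 8 arrays. The samples were whole tissue, in which fewer cells of a type and less of a miRNA per cell cannot be told apart.

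A miRNA hairpin is cut into a duplex of a 5′ and a 3′ arm, and one of these, the guide, is usually retained in an Argonaute protein while the other, the passenger or star strand, is mostly degraded. The guide pairs with target mRNAs mainly through its seed, bases 2 to 8, so that miRNAs with the same seed share many targets. The miR-30 guides are abundant in adipose tissue, are known to increase during adipocyte differentiation, and have been reported to favour the brown and beige fat programme.

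The sequences in RefSeq (assembly GRCm38.p6) covered 6 of the 9 members, and they are given because the strands measured here differ by so few bases. Capitals mark the seed.
miR-30a: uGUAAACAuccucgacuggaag
miR-30e: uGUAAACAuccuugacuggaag
miR-30c: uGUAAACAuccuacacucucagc
miR-30a*: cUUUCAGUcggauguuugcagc
miR-30e*: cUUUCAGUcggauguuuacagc
miR-30c-1*: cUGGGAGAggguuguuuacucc
The 3 guides share 1 seed. The guides miR-30a and miR-30e differ at 1 of 22 bases, C13U, counted from the 5′ end, and their passengers miR-30a* and miR-30e* also differ at 1 of 22 bases, G18A. miR-30a and miR-30c differ at 5 of the 22 positions compared. Among the passengers there were 2 seeds, one shared by miR-30a* and miR-30e* and the other in miR-30c-1*, and neither equals the guide seed. How far a probe for one member also binds another was not tested.

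The hairpins show where the 2 strands of a pair come from, with the mature arms in capitals.
Mir30a, chr1:23272269-23272339, plus strand: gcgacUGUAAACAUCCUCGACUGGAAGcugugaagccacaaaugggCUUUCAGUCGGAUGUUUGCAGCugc
Mir30e, chr4:120772606-120772697, minus strand: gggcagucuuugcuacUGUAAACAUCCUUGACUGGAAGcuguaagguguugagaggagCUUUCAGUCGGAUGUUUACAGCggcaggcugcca
Mir30c-1, chr4:120769534-120769622, minus strand: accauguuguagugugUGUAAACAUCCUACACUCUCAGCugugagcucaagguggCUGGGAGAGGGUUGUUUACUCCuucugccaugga
Mir30c-1 and Mir30e lie next to each other within the span of Nfyc, which encodes a subunit of the transcription factor NF-Y. The guide miR-30c is also made from Mir30c-2, a neighbour of Mir30a, so its signal joins both hairpins. Mir30b and Mir30d form the remaining pair of neighbours.

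Where a spot lay on its array moved its signal, and it did so in opposite ways in the 2 groups. Each probe was printed in several spots scattered over 192 rows. In rows 1 to 24 of the 4 arrays of cold mice, the mean log2 deviation of a spot from the median spot of its probe lay between -3.20 and -2.74, whereas in the same rows of the 4 room temperature arrays it lay between -0.75 and -0.15. In rows 169 to 192 the room temperature arrays were the dim ones, at -3.02 to -2.60, against -0.70 to -0.035 in the cold arrays. Positive control spots had the same pattern, being 4.21-fold dimmer in the first band on cold arrays and 6.62-fold dimmer in the last band on room temperature arrays. The arrays of the cold mice filled one of the slide's rows and those of the mice at room temperature the other, so that array position and group cannot be told apart. Over the 329 probes kept, the cold minus room temperature difference of a probe had a Pearson r of 0.46 and a Spearman rho of 0.55 with the mean row of its spots. This is a description across probes, which share arrays and are not independent.

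**Figure D1:**
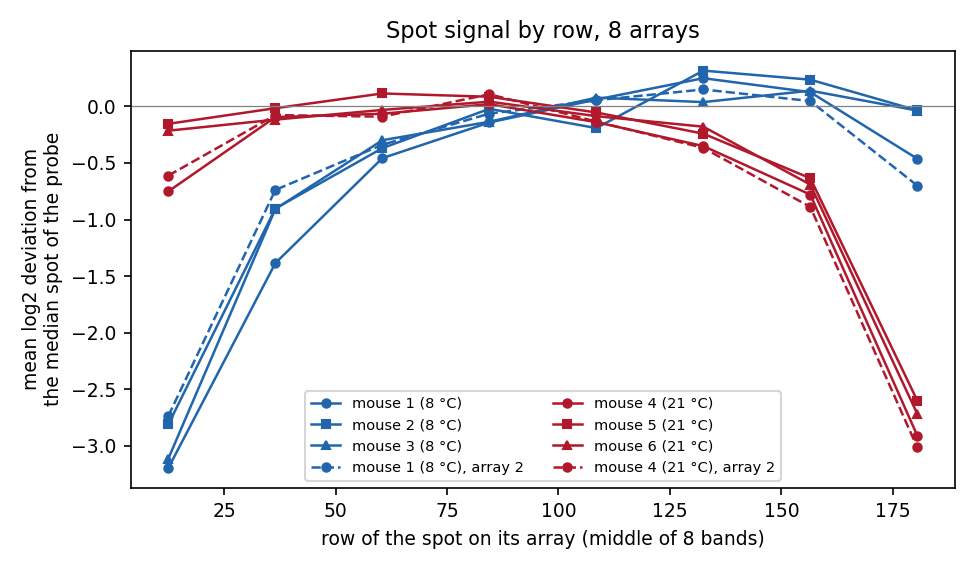
Mean log2 deviation of a spot from the median spot of its probe (vertical axis) in 8 bands of rows (horizontal axis), 1 line per array, for probes well above background on all 8 arrays. The cold arrays (blue) lie between -3.20 and -2.74 in the first band and the room temperature arrays (red) between -3.02 and -2.60 in the last.

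The values were therefore computed in 3 forms. The first averages all spots of a probe, as planned. The second keeps only spots in the middle rows 49 to 144, and the third removes from each array a smooth surface fitted over rows and columns. The latter 2 were chosen after seeing the data. The r with the mean row was 0.10 over 327 probes with the middle rows and -0.21 over 329 probes after surface removal. Among miRNAs with several kept probes, the median distance between the highest and lowest probe difference was 0.38 log2 units with all spots, 0.26 with the middle rows and 0.24 after surface removal. For the 6 members with several kept probes it went from 0.52 to 0.71 with the middle rows and to 0.22 after surface removal, and their probes had opposite signs in 2, 3 and 1 members. The median difference of all 189 miRNAs was -0.02 with all spots, 0.14 with the middle rows and 0.03 after surface removal, so a middle-row difference is to be read against 0.14. With all spots 29 of 189 miRNAs passed limma's test, with the middle rows 23, of which 16 were shared with the 29, and after surface removal 8, of which 4 were shared.

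Guides gave far more signal than passengers. Levels are normalised log2 signals, that is, log2 of the processed signal over the 75th percentile of the array, and differences are cold minus room temperature on that scale. The guide means at room temperature ran from 0.58 for miR-30c through 0.22 for miR-30e, 0.15 for miR-30a and -0.70 for miR-30b to -0.92 for miR-30d. The passengers followed at -2.37 for miR-30a*, -2.53 for miR-30e*, -5.44 for miR-30c-1* and -6.27 for miR-30b*. Levels of different miRNAs were read by different probes, so this order is one of hybridisation signal and not of molecules. Neighbours in the order from miR-30c to miR-30d, and miR-30a* and miR-30e*, overlapped between mice at room temperature.

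**Figure D2:**
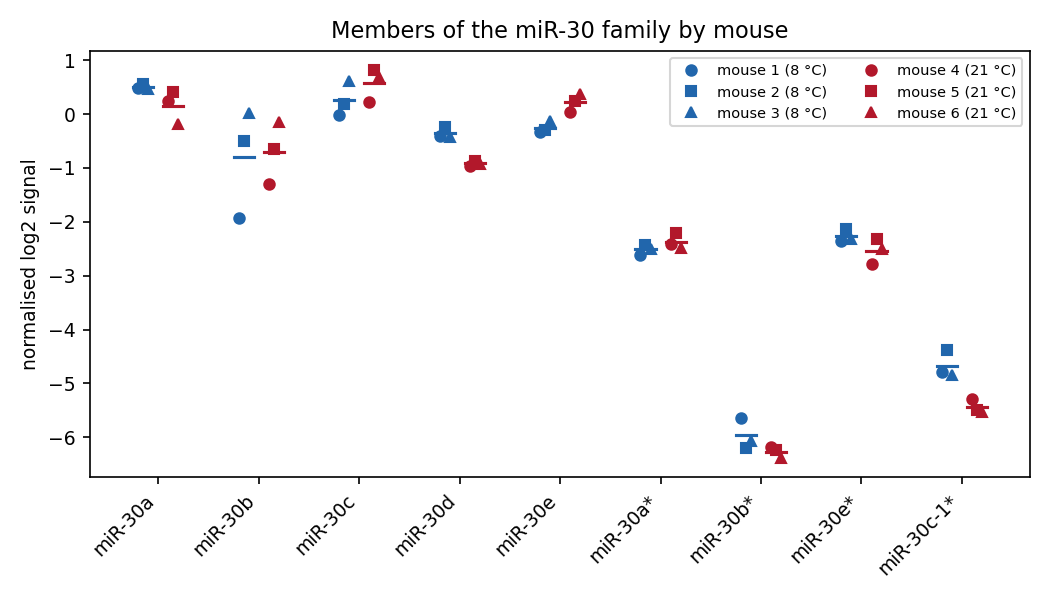
Normalised log2 signal (vertical axis) of the 9 members by mouse, with blue symbols for the 3 cold mice, red for the 3 room temperature mice and short lines for group means. The room temperature means run from 0.58 for miR-30c down to -6.27 for miR-30b*, and the groups do not overlap for miR-30a, miR-30d, miR-30e and miR-30c-1*.

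Of the 9 members, 2 were called higher in the cold, miR-30d and miR-30c-1*, and 0 were called lower. Over all 189 miRNAs the calls came to 15.3%, with 8.47% higher and 6.88% lower. The 2 groups of mice were fully separated for 4 members, against 38.6% of all miRNAs. An unadjusted p under 0.05 was met by 3 of the 9 and by 62 of the 189 miRNAs, or 32.8%. The median difference was 0.26 over the members with all spots, 0.24 with the middle rows and 0.081 after surface removal. In the middle rows 1 member was called, miR-30c-1*, beside 12.2% of all miRNAs, and after surface removal 0 were called, beside 4.23%. The groups did not overlap for 3 members in both of these forms, namely miR-30a, miR-30d and miR-30c-1*, beside 36% and 32.3% of all miRNAs.

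miR-30d, the guide made beside miR-30b, was the only guide to pass the test with all spots. Its level was -0.41, -0.23 and -0.42 in cold mice 1 to 3 and -0.97, -0.86 and -0.92 in room temperature mice 4 to 6. Every cold mouse lay above every room temperature mouse. The difference was 0.56 ± 0.12 (SE, n = 3 mice per group), or 1.48-fold (limma, adjusted p = 0.0205; 95% interval 0.28 to 0.85). With the middle rows the levels were -0.47, -0.83 and -0.56 against -0.84, -0.84 and -0.98. The difference was 0.26 ± 0.14 (95% interval -0.06 to 0.58, limma adjusted p = 0.228). The groups then only just failed to overlap, with mouse 2 at -0.833 and mouse 5 at -0.836. After surface removal it was 0.41 ± 0.12 (adjusted p = 0.088), again with no overlap between groups. The direction thus held in the 3 forms, whereas among them the call was made only with all spots. With no scaling of the arrays the difference was 0.12 (adjusted p = 0.831), where the median of all miRNAs moved to -0.46. The call was also lost with a median in place of a mean over spots, with a normexp background and with no filter on dim probes, at 0.48 to 0.56, and without mouse 2, 3, 4, 5 or 6, where the difference ranged from 0.50 to 0.60. Its 2 probes gave 0.43 and 0.70 with all spots, 0.03 and 0.50 with the middle rows, and 0.53 and 0.30 after surface removal.

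miR-30a, the guide from the Mir30a hairpin, did not pass the test in any of the 3 forms. Its level in the cold mice was 0.48, 0.56 and 0.46, and 0.23, 0.41 and -0.18 in the room temperature mice. The cold mice were the 3 highest. The difference, which turned to -0.094 with no scaling and to -0.25 with the brightest probe alone, was 0.35 ± 0.17 with all spots (95% interval -0.05 to 0.74, limma adjusted p = 0.203), 0.48 ± 0.17 with the middle rows (adjusted p = 0.108) and 0.31 ± 0.14 after surface removal (adjusted p = 0.222). Without mouse 6 it was 0.18 with all spots, and with the software's total signal 0.083. Its 3 probes differed in sign with all spots, at 0.80, 0.49 and -0.25, and their spots had mean rows of 107, 128 and 74.7. Each of these probes separated the groups with all spots, in the direction of its own sign. The same probes gave 0.55, 0.61 and 0.27 with the middle rows, and 0.30, 0.21 and 0.41 after surface removal.

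miR-30e, whose guide sequence is 1 base from that of miR-30a, changed direction with the treatment of spot position. With all spots its level in the cold mice was -0.33, -0.29 and -0.13, and 0.04, 0.25 and 0.36 at room temperature. The cold mice were the 3 lowest, and the difference was -0.47 ± 0.14 (limma, adjusted p = 0.0549). It passed the test under 6 alternatives that kept spots of all rows, at -1.02 to -0.42. Other alternatives with spots of all rows gave smaller differences that did not pass, namely -0.051 with the brightest probe (adjusted p = 0.86), -0.26 with the software's total signal (adjusted p = 0.396) and -0.32 with outlier spots kept (adjusted p = 0.0856). With the middle rows the difference was 0.24 ± 0.14 (95% interval -0.08 to 0.56, adjusted p = 0.275), and after surface removal it was 0.016 ± 0.13 (95% interval -0.29 to 0.32, adjusted p = 0.965). The probe with the larger difference, -0.89 with all spots, had the lowest mean row of the 16 member probes kept, 57.5, and gave -0.16 with the middle rows and -0.15 after surface removal. The other probe gave -0.051 with all spots, 0.64 with the middle rows and 0.18 after surface removal.

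miR-30c, the brightest guide on average at room temperature, did not pass the test. Its level in the cold mice was -0.01, 0.18 and 0.61, and 0.23, 0.82 and 0.69 at room temperature, and the groups overlapped. The difference was -0.32 ± 0.22 with all spots (95% interval -0.82 to 0.18, limma adjusted p = 0.346), -0.77 ± 0.38 with the middle rows (adjusted p = 0.219) and -0.43 ± 0.18 after surface removal (adjusted p = 0.182). Its 2 probes differed, at -0.70 and 0.068 with all spots, -0.32 and -1.21 with the middle rows and -0.59 and -0.27 after surface removal. The difference was -1.09 with the median over spots (adjusted p = 0.0746), -0.029 with outlier spots kept and 0.15 with the software's total signal. Without mouse 1 it was -0.18, without mouse 5 -0.20, and without mouse 3 or mouse 4 -0.49.

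miR-30b was the least precise guide. Its level in the cold mice was -1.93, -0.50 and 0.01, and -1.31, -0.65 and -0.14 at room temperature, and the groups overlapped in the 3 forms. The difference was -0.10 ± 0.50 with all spots (95% interval -1.26 to 1.05, limma adjusted p = 0.881), 0.30 ± 0.51 with the middle rows and -0.12 ± 0.45 after surface removal. Leaving out 1 mouse moved the all-spot value between -0.51, without mouse 3, and 0.46, without mouse 1. Without mouse 2 it was -0.26, without mouse 4 -0.41 and without mouse 6 0.17. Only 1 of its 2 probes was bright enough to keep. The 2 arrays of mouse 1 differed by 0.76 log2 units for miR-30b, the most among the 9 members, whose median was 0.21. For mouse 4 the median was 0.17 and the largest difference 0.49, for miR-30e*.

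Among the passengers, miR-30c-1*, the strand released from the hairpin within Nfyc, had the largest difference. Its level in the cold mice was -4.79, -4.38 and -4.85, and -5.29, -5.50 and -5.53 at room temperature. All cold mice lay above all room temperature mice. The difference was 0.77 ± 0.16 (SE, n = 3 mice per group), or 1.70-fold (limma, adjusted p = 0.0205). It was 0.64 ± 0.13 with the middle rows (adjusted p = 0.031) and after surface removal 0.54 ± 0.19 (adjusted p = 0.134), with no overlap between groups in either form. The value rests on 1 of its 4 probes, with 5 spots and processed signals between 19.1 and 40.1 units, a dim but measured level that was well above background on all 8 arrays. It was 0.33 with no scaling (adjusted p = 0.61). The call was also lost with the control probes as scale, the median over spots, the normexp background and the software's total signal, at 0.55 to 0.72. The same held without mouse 2, 5 or 6, where the difference ranged from 0.62 to 0.74, and with no filter, at 0.20. With no filter the mean took in its other probes, which differed by 0, 0 and 0.017. The strand of the sister hairpin, miR-30c-2*, which is not among the members, had a difference of -0.20 ± 0.15 with all spots (limma, adjusted p = 0.391), 0.42 ± 0.15 with the middle rows (adjusted p = 0.115) and 1.19 ± 0.16 after surface removal (adjusted p = 0.0146). It thus changed direction with the treatment of spot position and passed the test in 1 of the 3 forms.

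The other 3 passengers did not pass the test in any of the 3 forms. For miR-30a* the level in the cold mice was -2.61, -2.42 and -2.50, and -2.42, -2.20 and -2.48 at room temperature. Its difference was -0.15 ± 0.13 (95% interval -0.46 to 0.17) with all spots, -0.084 ± 0.15 with the middle rows and 0.081 ± 0.14 after surface removal. Without mouse 1 the all-spot value was -0.095, and without mouse 5 it was -0.062. For miR-30e* the level in the cold mice was -2.36, -2.14 and -2.31, and -2.78, -2.31 and -2.51 at room temperature, with a difference of 0.26 ± 0.16 (95% interval -0.10 to 0.63) that turned to -0.18 with no scaling. It was 0.14 ± 0.17 with the middle rows, 0.11 ± 0.13 after surface removal and, with all spots, 0.14 without mouse 4. These strands are the partners of miR-30a and miR-30e. For miR-30b* the processed signals were only 11.4 to 16.9 units, and its kept probe was well above background on 2 of the 4 cold arrays and on all 4 room temperature arrays. Its difference was 0.30 ± 0.17 with all spots, 0.13 without mouse 1 and -0.14 with no scaling. It was 0.15 ± 0.22 with the middle rows and -0.34 ± 0.27 after surface removal. In the last form mouse 3 was at -6.64, the lowest value the scale allows, and mouse 2 at -6.54.

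**Figure D3:**
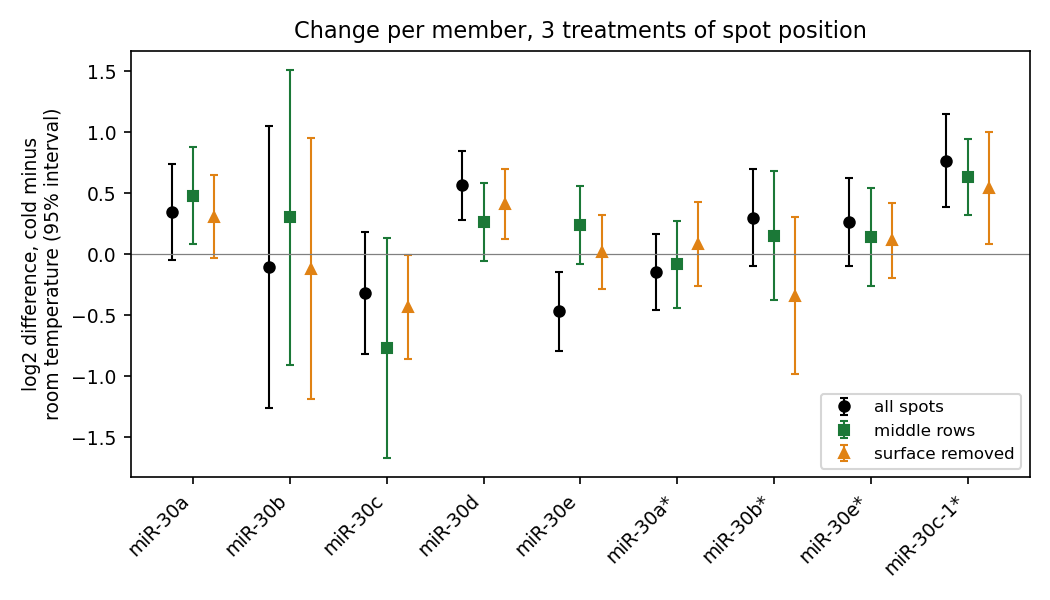
Log2 difference of cold minus room temperature (vertical axis, with 95% intervals from limma) for the 9 members, with all spots (black), spots of the middle rows (green) and after surface removal (orange). The differences of miR-30a, miR-30d, miR-30e* and miR-30c-1* lie above 0 in the 3 forms. Among these, only miR-30c-1* has intervals that leave out 0 in all 3 forms. The interval of miR-30d with the middle rows runs from -0.06 to 0.58. miR-30e lies at -0.47 with all spots, 0.24 with the middle rows and 0.016 after surface removal.

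The ratio of guide to passenger compares the strands that stay after the duplex opens, and within an array it does not depend on how arrays are scaled by a single factor. In total 14 ratios were compared, 10 between guides and 4 of a guide over a passenger, each with an exact permutation test over mice, 2-sided, whose smallest p for 3 against 3 mice is 0.1. The log2 ratio of miR-30a over miR-30a* was 3.09, 2.98 and 2.96 for the cold mice and 2.65, 2.61 and 2.30 at room temperature. The cold mice were higher in 3 of 3, and the geometric mean of the signal ratio was 8.06 in the cold and 5.73 at room temperature, a log2 difference of 0.49 (exact permutation p = 0.1, adjusted p = 0.233). It was 0.56 with the middle rows (p = 0.1, adjusted 0.467, exact permutation) and 0.23 after surface removal (p = 0.1, adjusted 0.233, exact permutation), with no overlap in any of the 3 forms. With the brightest probe of each strand the sign turned, at -0.21, and the groups were then fully separated in the opposite direction (exact permutation p = 0.1).

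The log2 ratio of miR-30c over miR-30c-1* was 4.78, 4.56 and 5.47 for the cold mice and 5.52, 6.32 and 6.22 at room temperature. The cold mice were the 3 lowest, and the signal ratio was 30.6 in the cold against 64.9 at room temperature. The difference was -1.08 with all spots, -1.40 with the middle rows and -0.97 after surface removal, each without overlap (exact permutation p = 0.1, adjusted p = 0.233, 0.467 and 0.233). Since miR-30c is made from 2 hairpins and miR-30c-1* from 1, this ratio is not that of a single duplex.

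The log2 ratio of miR-30e over miR-30e* was 2.03, 1.85 and 2.18 for the cold mice and 2.82, 2.56 and 2.88 at room temperature with all spots, a difference of -0.73 (exact permutation p = 0.1, adjusted p = 0.233). That separation was not seen in the other forms, where the difference was 0.10 with the middle rows (exact permutation p = 0.7, adjusted p = 1) and -0.10 after surface removal (exact permutation p = 0.4, adjusted p = 0.622). The log2 ratio of miR-30b over miR-30b* overlapped between groups in the 3 forms, with differences of -0.40, 0.15 and 0.22.

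**Figure D4:**
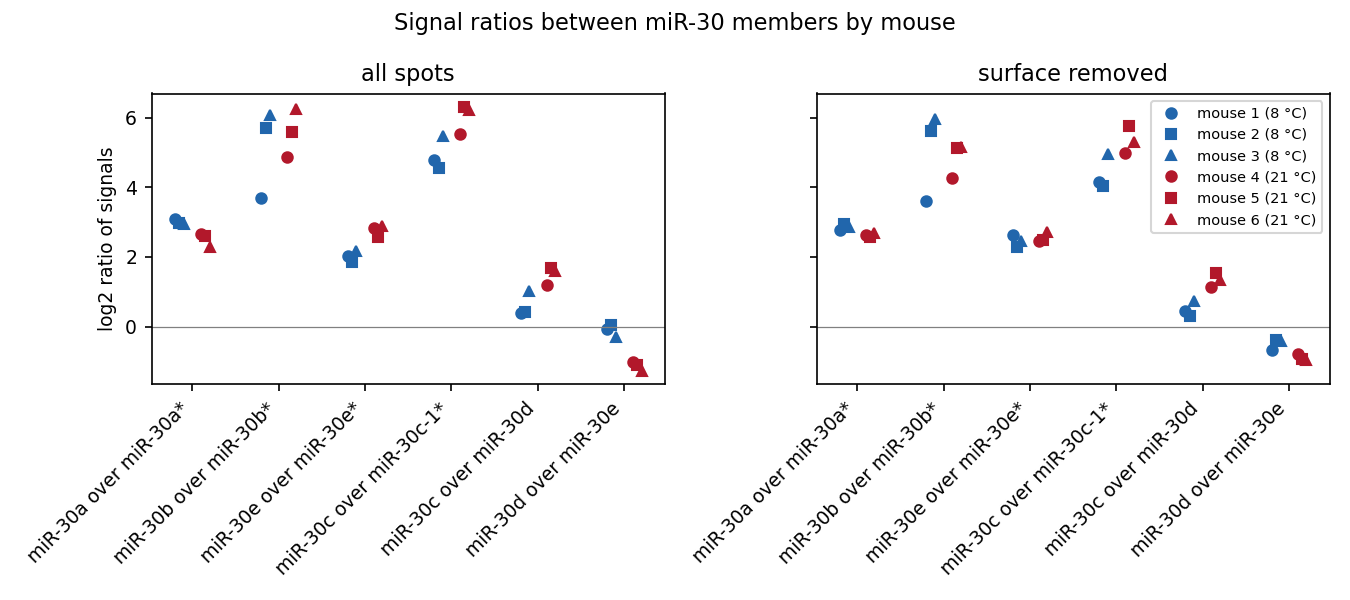
Log2 ratio of signals (vertical axis) for 4 guide over passenger pairs and 2 guide pairs, by mouse, with all spots (left) and after surface removal (right), blue for cold and red for room temperature. miR-30a over miR-30a* is higher and miR-30c over miR-30c-1* lower in every cold mouse in both panels, while miR-30e over miR-30e* separates the groups only on the left.

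Guides made from neighbouring hairpins were set against each other as well. In the pair Mir30b and Mir30d, miR-30b over miR-30d differed by -0.67 with all spots, 0.038 with the middle rows and -0.53 after surface removal, with overlap in each (exact permutation p = 0.5, 1 and 0.5, adjusted p = 0.7, 1 and 0.636). The all-spot value was -0.13 without mouse 1, -0.39 without mouse 6 and -1.11 without mouse 3. For Mir30c-1 and Mir30e, miR-30c over miR-30e differed by 0.15 with all spots, by -1.01 with the middle rows and by -0.45 after surface removal, the last without overlap (exact permutation p = 0.4, 0.2 and 0.1, adjusted p = 0.622, 0.56 and 0.233). For Mir30a and Mir30c-2, miR-30a over miR-30c differed by 0.66 with all spots, where the groups overlapped, and by 1.24 with the middle rows and 0.74 after surface removal, where they did not (exact permutation p = 0.2, 0.1 and 0.1, adjusted p = 0.4, 0.467 and 0.233). Here too miR-30c joins 2 hairpins.

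Between guides the largest shift with all spots was that of miR-30d over miR-30e, at -0.08, 0.06 and -0.29 in the cold mice and -1.01, -1.12 and -1.28 at room temperature. It came to 1.03, to 0.40 after surface removal and to 0.02 with the middle rows (exact permutation p = 0.1, 0.1 and 0.9, adjusted p = 0.233, 0.233 and 1). miR-30c over miR-30d was lower in the cold by a log2 difference of -0.88 with all spots, -1.03 with the middle rows and -0.84 after surface removal, and the groups overlapped with the middle rows. In all, 6 of the 14 ratios separated the groups with all spots, 3 with the middle rows (2 of them among the 6) and 6 after surface removal (4 of them among the 6). Of all single miRNAs, an unlike measure, 38.6%, 36% and 32.3% separated the groups in these forms. The 14 ratios reuse the same 9 members and are not independent. No ratio had an adjusted p under 0.233.

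With all spots miR-30c and miR-30a gave the largest mean shares of the guide signal. Of the summed signal of the 5 guides, miR-30c held 32.1% ± 4.28 in the cold and 32.4% ± 2.53 at room temperature (SD, n = 3), and miR-30a held 27.1% ± 2.72 and 27.1% ± 3.83. The share of miR-30d was 12.9%, 12.6% and 11.8% for the cold mice and 9.55%, 8.35% and 7.86% at room temperature. It was the higher in 3 of 3 cold mice, by 3.88 percentage points (exact permutation p = 0.1, adjusted over the 5 shares p = 0.25). After surface removal the gap was 2.36 points, without overlap, and with the middle rows it was 1.05 points, with overlap. The share of miR-30e differed by -3.46 points with all spots, 5.17 with the middle rows and 0.69 after surface removal. After surface removal miR-30a was 5.23 points higher and miR-30c differed by -7.50 points, each without overlap (exact permutation p = 0.1, adjusted p = 0.167). With the middle rows miR-30a was 3.87 points higher and miR-30c differed by -12.6 points, each with overlap (exact permutation p = 0.4 and 0.3, adjusted p = 0.6). In that form the cold mice had mean shares of 26.5% for miR-30a, 24.6% for miR-30e and 24.5% for miR-30c, and in mouse 3 miR-30e held the largest share, 31.1%. The summed signal over the 75th percentile was 6.51 ± 0.641 in the cold and 6.32 ± 0.754 at room temperature (SD, n = 3, exact permutation p = 0.7).

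**Figure D5:**
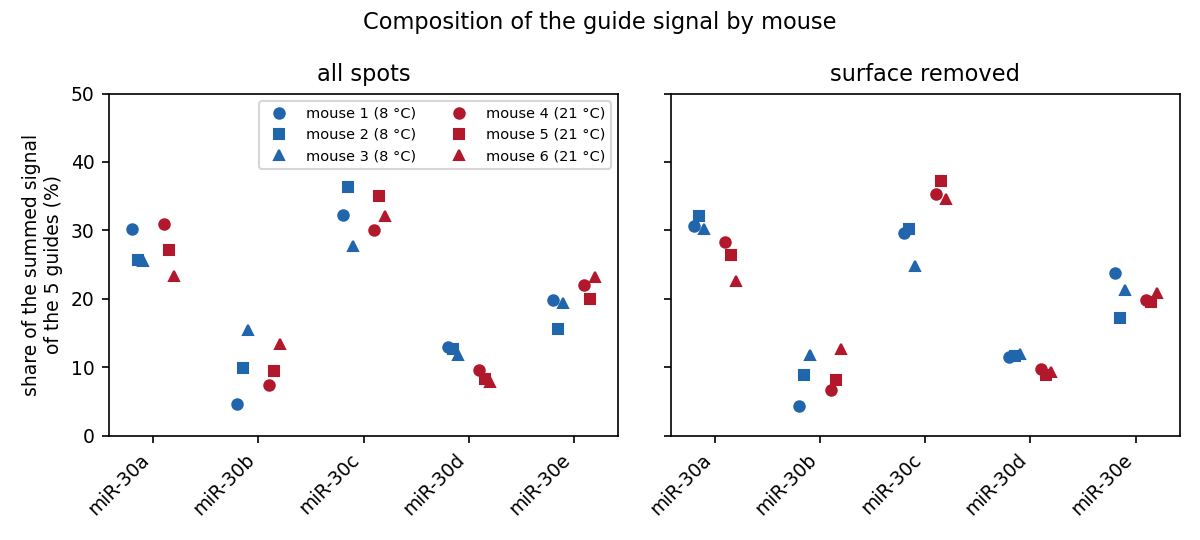
Share of each guide in the summed signal of the 5 guides (vertical axis, percent) by mouse, with all spots (left) and after surface removal (right), blue for cold and red for room temperature. miR-30d is between 11.8% and 12.9% in the cold mice and between 7.86% and 9.55% at room temperature with all spots.

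The miRNAs most like a member were sought among 179 measured miRNAs outside the family, by Pearson r of the normalised level over the 6 mice, a measure that follows the groups and the arrays alike. For miR-30d they were miR-193b (r = 0.99), a miRNA enriched in brown fat, miR-132 (r = 0.99), which is induced through the transcription factor CREB, and miR-301a (r = 0.95). The same r values were 0.76, 0.79 and 0.64 with the middle rows and 0.66, 0.93 and -0.48 after surface removal. For miR-30e they were miR-24-2* (r = 0.97), miR-340-5p (r = 0.96) and miR-148b (r = 0.95), against -0.34, -0.19 and -0.15 with the middle rows and 0.0028, 0.95 and -0.095 after surface removal. For the mean of the guides they were miR-150 (r = 0.94), a lymphocyte miRNA, miR-365 (r = 0.92) and miR-139-5p (r = 0.91), against 0.42, 0.62 and -0.15 with the middle rows and 0.86, 0.89 and 0.52 after surface removal. Of these 9 values of r, all over 0.9 with all spots, 0 were over 0.9 with the middle rows and 2 after surface removal. The 9 were picked for the highest r with all spots, so these counts cannot compare the forms.

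All 20 miRNAs of a list of adipocyte miRNAs were measured, and with all spots 2 were called higher and 0 lower, with a median difference of 0.03, beside calls for 15.3% of all miRNAs. The 3 with the smallest p were miR-193b at 0.64 ± 0.12 (limma, adjusted p = 0.0129), miR-378, which lies in the gene of the coactivator Ppargc1b, at 0.97 ± 0.21 (adjusted p = 0.0219), and miR-182 at 0.40 ± 0.13 (adjusted p = 0.0864). The middle rows gave 2 called higher and 1 lower, beside 12.2% of all miRNAs, and after surface removal 0 were called, beside 4.23%. miR-30d at 0.56 lay between miR-182 and miR-193b with all spots. With the middle rows it lay below both, at 0.26 against 0.53 and 0.66, and after surface removal above both, at 0.41 against -0.32 and 0.35.

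The miRNAs taken as markers of brown fat, miR-193b, miR-365, miR-378 and miR-455, were all measured. Sums over a list are given here as processed signal over the 75th percentile of the array, since that percentile was itself lower on average in the cold mice. The groups overlapped in it (exact permutation p = 0.2). The brown fat markers summed to 10.2 to 12.9 in the cold mice and 7.91 to 9.57 at room temperature, without overlap. Of these 4, limma called 2 higher with all spots, 1 with the middle rows and 0 after surface removal, with median differences of 0.38, 0.42 and 0.19. The 2 called with all spots were miR-193b and miR-378, while miR-365 differed by -0.074 (adjusted p = 0.84) and miR-455 by 0.13 (adjusted p = 0.741).

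Of the striated muscle miRNAs, miR-1, miR-133a, miR-133b and miR-206 were measured and miR-499 and miR-208b were not. The 6 together summed to 2.12 to 10.6 in the cold and 12.2 to 18.0 at room temperature, without overlap. With all spots 3 of the 4 measured were called lower, and with the middle rows and after surface removal 0 were called, although the median difference went only from -1.92 to -1.80 in both. The 3 erythroid miRNAs summed to 17.8 to 28.7 in the cold and 12.7 to 15.8 at room temperature, without overlap. Their median difference was 0.64 with all spots, 0.67 with the middle rows and 0.48 after surface removal, and limma called 0, 1 and 0 of them. The 5 leukocyte miRNAs summed to 0.691 to 1.12 in the cold and 1.18 to 1.25 at room temperature, yet 0 were called in any of the 3 forms. For no single one of them were the groups apart, and the medians were -0.38, -0.15 and -0.24. The 4 stromal miRNAs summed to 0.621 to 0.738 against 0.974 to 1.03, and of the 3 measured 2 were called lower with all spots, 2 with the middle rows and 0 after surface removal. With all spots miR-199a-5p went the other way, at 0.68 ± 0.31 (limma, adjusted p = 0.169), without overlap between groups. In the other 2 forms all 3 differences were negative. The stromal medians were -0.75, -0.52 and -0.29. The 2 endothelial miRNAs overlapped between groups, at 12.0 to 13.6 against 11.6 to 13.4. Of 6 epithelial miRNAs 0 were measured, and of 3 neural ones only miR-128. The liver miRNA miR-122 was at 0.0013 to 0.0023 in the cold and 0.0071 to 0.21 at room temperature. The part of these other cells in the miR-30 values was not tested.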

How the data were processed

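The authors deposited the scanner output of each array, with the intensity of every spot on a linear scale after background subtraction. The software version is 10.7.3.1 per the file headers and 9.5.3.1 in the submitters' processing notes, both of Agilent Feature Extraction. The genome build and the rules of the spot layout are not given in the sources used here. The deposited value table of the series holds the same intensities, with a largest difference of 0, and column medians of 1.12 to 1.55 units.

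Spots marked as outliers were dropped and the others of a probe averaged. Each array was scaled to its own 75th percentile (267 probes well above background on all 8 arrays), which was 793 ± 149.7 units in the cold and 1085 ± 286 at room temperature (SD, n = 3). A floor of 0.01 was set before log2. The filter asked that more than 0.5 of the spots of a probe be well above background on all arrays of 1 group or both; 329 of 1712 probes and 16 of 23 member probes met it. Kept probes of a miRNA were averaged on the log2 scale, and so were the 2 arrays of mouse 1 and of mouse 4. Differences over 189 miRNAs were tested in R 4.3.3 by limma 3.58.1 (functions lmFit and eBayes) with Benjamini-Hochberg adjustment at 0.05, and the fit was tested on simulated data. Ratios and shares were compared by exact permutation. Replicates are separate mice. The surface was a loess fit with a span of 0.15, alternated with the medians of the probes.

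All 9 members are named, with the 3 miRNAs outside the family most like miR-30d, miR-30e and the guide mean, and the 3 of an adipocyte list with the smallest p. The members and lists were chosen with earlier results of these data known. The number of arrays limits the precision.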

Additional observations from a re-analysis of the deposited data

How the results depend on the processing

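The 22 alternatives comprised 6 that left out a mouse and 5 chosen after seeing the data, namely the normexp background on the median spot signal (offset of 50), outlier spots kept, the median over spots, the middle rows and the surface. The planned normexp on the mean spot signal was not run, since the files used here give the median spot signal instead. No paired analysis was possible because the mice were not paired and the groups share no mouse numbers. The direction of miR-30d, miR-30c-1*, the share of miR-30d, and the ratios miR-30c over miR-30c-1*, miR-30c over miR-30d and miR-30d over miR-30e held under every alternative run. Some alternatives could not move them, so they are no support. The value table of the series holds the same intensities, and the intensity trend alters only p. Ratios and shares stay the same under no scaling, the control probes and the percentile over all probes. Asking for probes well above background on all 8 arrays left miR-30d, miR-30c-1* and the ratios just named the same. With no filter miR-30d, miR-30c over miR-30d and miR-30d over miR-30e stayed the same, and with the brightest probe miR-30c-1* did. Where a value below moved, the cause was not tested, with exceptions. The call of a result can also move with the number of miRNAs tested, which was 566 with no filter. In that alternative the mean of miR-30c-1* also took in its unkept probes. These differed by 0, 0 and 0.017 and lay at or near the floor. Changes are log2 differences with limma's adjusted p, ratios are log2 differences and shares are percentage points. With no scaling the median of all miRNAs moved to -0.46, and 0 members were called: miR-30d 0.12 (adjusted p = 0.831), miR-30c-1* 0.33 (0.61), and with turned sign miR-30a -0.094, miR-30b* -0.14 and miR-30e* -0.18. With normexp 0 were called: miR-30d 0.51 (0.0577), miR-30c-1* 0.55 (0.0836), and with turned sign miR-30a* 0.0014 and the share of miR-30b 0.22. With no filter 0 were called: miR-30d 0.56 (0.0854) and miR-30c-1* 0.20 (0.241). With the median over spots 1 was called, miR-30e at -1.02 (0.00939), with miR-30d 0.48 (0.0638), miR-30c-1* 0.59 (0.0564), miR-30c over miR-30e -0.071, and shares of miR-30a 4.49 and miR-30b 0.77. With the software's total signal 1 was called, with miR-30c-1* 0.70 (0.0598), miR-30c 0.15, miR-30a over miR-30c -0.070, miR-30b over miR-30c -0.26 and a share of miR-30c of 1.57. With scaling to the control probes miR-30c-1* was 0.72 (0.0512) and miR-30e -0.51 (0.0418). miR-30e was also called with the percentile over all probes at -0.54 (0.0479), with quantile normalisation at -0.42 (0.0359) and with an intensity trend at -0.47 (0.0458). Quantile normalisation turned miR-30b to 0.0077 and its share to 0.51. With the middle rows 1 was called, with miR-30d 0.26 (0.228), and turned were miR-30b 0.30, miR-30e 0.24, miR-30a over miR-30d 0.21, miR-30b over miR-30b* 0.15, miR-30b over miR-30d 0.038, miR-30c over miR-30e -1.01, miR-30e over miR-30e* 0.10, and the shares of miR-30a 3.87, miR-30b 2.54 and miR-30e 5.17. With the surface removed 0 were called, with miR-30d 0.41 (0.088) and miR-30c-1* 0.54 (0.134), and turned were miR-30a* 0.081, miR-30b* -0.34, miR-30e 0.016, miR-30b over miR-30b* 0.22, miR-30b over miR-30e -0.13, miR-30c over miR-30e -0.45, and the shares of miR-30a 5.23 and miR-30e 0.69. With the brightest probe, turned were miR-30a -0.25, miR-30c 0.068, miR-30a over miR-30a* -0.21, miR-30a over miR-30b -0.15, miR-30a over miR-30c -0.32, miR-30a over miR-30e -0.20, miR-30b over miR-30c -0.17, miR-30b over miR-30e -0.054, and the shares of miR-30b 0.32 and miR-30c 1.99. With outlier spots kept, turned were miR-30b 0.36, miR-30a over miR-30b -0.057, miR-30b over miR-30b* 0.042, and the shares of miR-30b 1.31 and miR-30c 0.81. With the first array of each mouse the share of miR-30c was 2.19. Leaving out 1 mouse gave 0 to 2 members called, miR-30d 0.50 to 0.60, miR-30c-1* 0.62 to 0.86, miR-30e -0.56 to -0.40, miR-30b -0.51 to 0.46, miR-30a over miR-30b -0.10 to 0.88, miR-30b over miR-30b* -0.87 to 0.33, miR-30b over miR-30c -0.022 to 0.64, miR-30b over miR-30d -1.11 to -0.13, miR-30a 0.18 to 0.47, miR-30b* 0.13 to 0.41, miR-30c -0.49 to -0.18, miR-30e* 0.14 to 0.37, and shares of miR-30a -1.93 to 1.89, miR-30b -2.81 to 2.61 and miR-30c -2.42 to 1.85. Signals near background limit miR-30b* and miR-30c-1*, and the few spots in the middle rows, 2 for the kept probe of miR-30b, limit that form.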
